A study of Mus musculus with 16 samples.

Results

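Organic ion and drug transporters are the membrane proteins that move drugs, toxins, urate, carnitine and prostaglandins into and out of cells. They were taken from the deposited expression table by symbol, as every gene of the SLC22, SLCO and SLC47A families and of ABC subfamilies B, C and G, which gave 52 of 18132 genes. Of these, 28 were uptake carriers of the SLC22 and SLCO families, 1 was the proton-coupled extruder Slc47a1 and 23 were ABC transporters. Labelled RNA from 16 mouse kidneys had been hybridized to Illumina BeadChips, 1 array per kidney, on which the brightness of a gene's probes follows the amount of its transcript. After unilateral ureteral obstruction (UUO), in which a ureter is ligated and the kidney behind it is injured, kidneys were taken at 24 h from 7 wildtype (WT) and 5 IL-33-deficient mice. The control groups were 2 WT and 2 IL-33-deficient kidneys, labelled only as controls. By label the UUO kidneys belonged to set 1 (3 WT, 2 IL-33-deficient) or set 2 (4 WT, 3 IL-33-deficient), and the controls to neither. The Il33-deficient strain had been backcrossed to C57BL/6J BomTac (B6JBOM), mice were generally 8 weeks of age, and no promoter or Cre that would restrict the Il33 deficiency to a cell type is named. The number in a label is used to name its kidney, and all values are log2 intensities unless another scale is named.

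In the proximal tubule, basolateral carriers of the SLC22 family take organic anions and cations up from the blood. ABC pumps, which use ATP, and the proton-coupled Slc47a1 then expel them across the apical membrane into the urine, so secretion of a drug needs both steps. Organic anion transporting polypeptides, the SLCO family, carry bile acids, hormone conjugates and prostaglandins, and several ABC members sit in mitochondria or lysosomes, move lipids or form channel subunits instead of pumping drugs.

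Of the 52 transporters, 26 were brighter than the median gene of the table, namely 16 of 28 uptake carriers, Slc47a1 and 9 of 23 ABC transporters. The other 26 had mean log2 intensities of 6.78 to 7.04, beside 7.05 for the median gene. An intensity near the lowest of the table, 95.5, is background rather than a true zero, so fold changes of dim genes are compressed. Among the dim genes were Slco1a1, Slco1a6, Slco4c1, Abcb1a, Abcc1, Abcg1 and Abcg2, and their log2 differences after UUO lay between -0.18 and 0.14 together with those of the other dim genes. A low signal from these probes does not show that the transporter was absent. No gene of the deposited table carried the symbol Abcc4 or Slc47a2, so these were not analysed here. The symbol Slc22a9 of the table is an older name shared by more than 1 mouse gene, so its identity is open, and near-identical copies such as Abcb1a and Abcb1b could share signal because probe sequences were not used here.

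Members that neighbour each other in the annotation of GRCm38.p6 include Slc22a6 and Slc22a8 on chromosome 19, with no protein-coding gene between them. Promoter sequences from RefSeq, 250 bases before to 50 bases after each start, were found for 39 of the 52 members, and motifs were searched on both strands. The core TGACNNNGC, read by the stress factor NRF2, stood in 12.4% of 32851 promoters and in those of Abcb1a, Abcc10, Abcc2, Slco4c1 and Slco6b1. It is shown here for Abcc2, the apical anion pump, and for Abcc10, the 1 gene of these 5 that passed a test after UUO, with 30 bases on either side and the core in capitals. The Abcc2 stretch lies at chr19:43782180-43782248 on the plus strand and the Abcc10 stretch at chr17:46328188-46328256 on the minus strand of GRCm38.p6.
Abcc2: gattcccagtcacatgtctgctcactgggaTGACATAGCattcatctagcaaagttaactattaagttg
Abcc10: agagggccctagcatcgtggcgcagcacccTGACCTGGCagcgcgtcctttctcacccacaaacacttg
The core begins 98 bases before the start of Abcc2 and 203 bases before 1 of the 2 starts listed for Abcc10. The AP-1 site TGAGTCA stood in 5.2% of promoters and in that of Slco2b1 alone among the members. These letters are descriptions of the windows and not evidence that a factor binds there.

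Il33 followed the labels. It was at 7.62 and 8.02 in WT controls and at 8.39 to 9.57 after UUO in WT kidneys, and between 6.80 and 7.02 in all IL-33-deficient kidneys. One WT kidney after UUO, replicate 3820, stood apart from the other 6. Its summed intensity over 13 proximal tubule markers was 57700, beside 62870 to 63660 in WT controls and 28960 as the lowest WT kidney after UUO, and its sum over 9 injured-tubule markers, 21000, was the lowest of any UUO kidney. For 16 of the 21 transporters that passed the test in either genotype, it lay nearer to the WT controls than every other WT kidney after UUO did. Counts are therefore also given without it. Because the transporters themselves helped to single it out, higher WT counts without it are not separate support for a response.

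In WT kidneys UUO lowered carriers of both organic anions and organic cations, and raised the prostaglandin carrier Slco2a1 and the pumps Abcb1b and Abcc3. With limma's moderated test and Benjamini-Hochberg adjustment over all genes, 11 of 52 transporters were lower and 3 were higher at an adjusted p of 0.05, where 8.22% of all genes were lower and 6.97% higher. The lower ones were 6 uptake carriers, Slc47a1 and 4 ABC transporters. Without replicate 3820 the counts were 16 and 4, and the share of all genes called in either direction went from 15.2% to 19.7% with them. In IL-33-deficient kidneys 16 transporters were lower, 10 of them uptake carriers, 1 Slc47a1 and 5 ABC transporters, and the same 3 genes were higher. Of all genes, 11.2% fell there and 10.6% rose. In both genotypes 9 transporters were lower, which is 9 of the 11 in WT and 9 of the 16 in IL-33-deficient kidneys. The share of all genes lower in both genotypes was not counted, so this overlap is not read as particular to transporters. The 2 responses were measured against separate controls, 2 kidneys each, and their precision rests on them. Leaving out WT control 3811 or 3812 left 7 or 4 lower transporters in WT kidneys, with 5.8% or 4.46% of all genes called in either direction. Leaving out IL-33-deficient control 3813 or 3814 left 10 or 9 in IL-33-deficient kidneys, where 12.6% or 14.2% of all genes were then called, beside 21.8% with both.

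**Figure D1:**
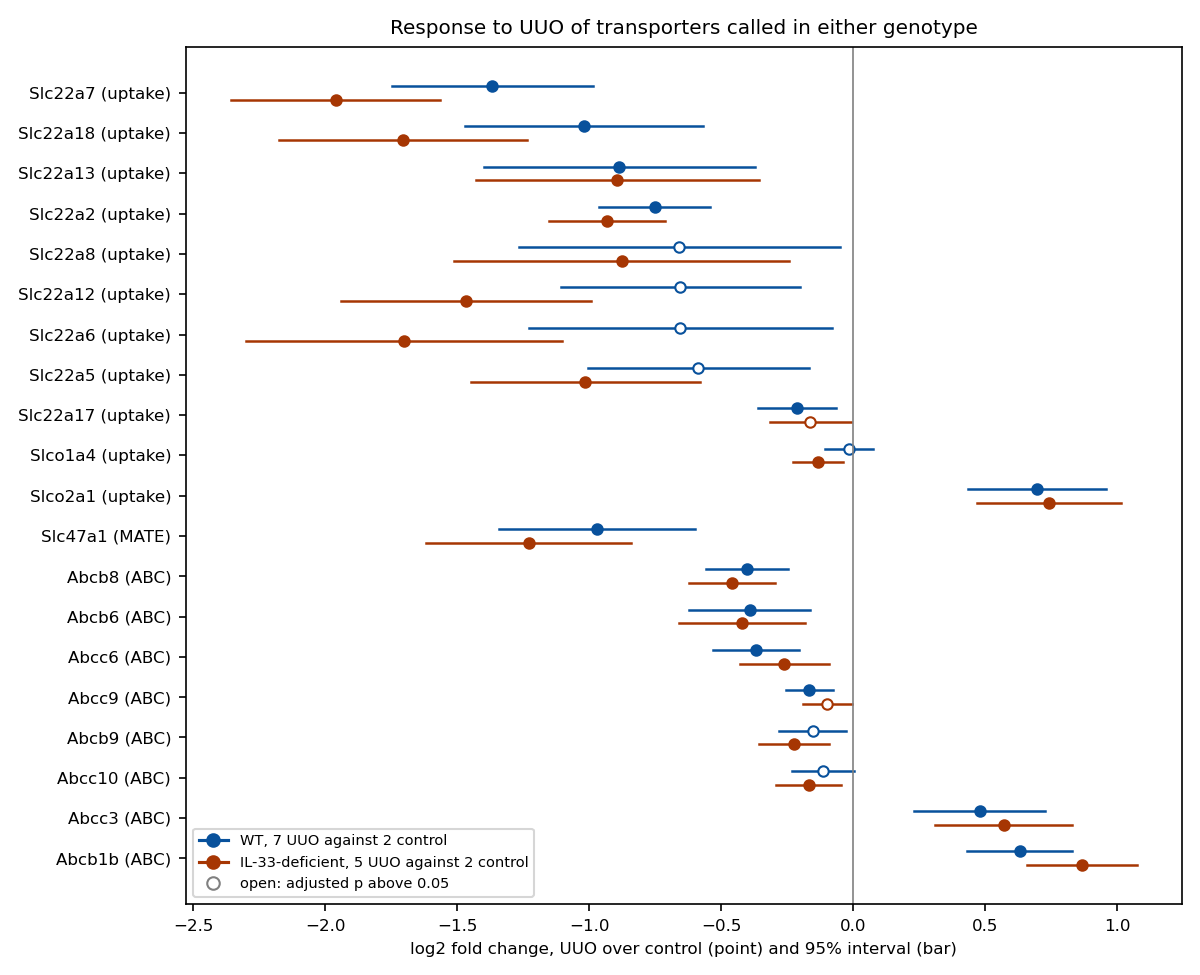
Log2 fold change after UUO over controls (points) with its 95% interval (bars), in WT (7 against 2 kidneys) and IL-33-deficient mice (5 against 2), for 20 of the 21 transporters that passed an adjusted p of 0.05 in either genotype; open points did not pass. Slc47a1 and all uptake carriers but Slco2a1 lie left of 0, while Slco2a1, Abcb1b and Abcc3 lie right of it in both genotypes.

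The largest fall of any transporter in both genotypes was that of an organic anion carrier, Slc22a7. This gene, whose product carries organic anions and cyclic nucleotides, was at 9.39 and 9.42 in WT controls and at 7.69, 8.60 and a median of 7.96 as the lowest, highest and middle of the WT kidneys after UUO. IL-33-deficient controls were at 9.50 and 9.61, and the 5 kidneys after UUO at 7.44, 7.51, 7.46, 7.78 and 7.80. No UUO kidney of either genotype overlapped its controls. The fall was 2.58-fold in WT (log2 -1.37 ± 0.18 SE, limma adjusted p = 2.69e-04) and 3.89-fold in IL-33-deficient kidneys (log2 -1.96 ± 0.19, limma adjusted p = 9.72e-06).

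Slc22a6, the main basolateral uptake carrier for organic anions, was at 13.02 and 13.12 in WT controls, and in WT kidneys after UUO its lowest level was 11.66, its median 12.49 and its highest 12.84. IL-33-deficient controls stood at 13.08 and 13.32 and the kidneys after UUO at 11.12, 11.16, 11.56, 11.52 and 12.14. All UUO kidneys were below the controls of their genotype, yet the WT response of -0.65 ± 0.27 did not pass the test (limma adjusted p = 0.128), whereas the fall of 1.70 ± 0.28 on the log2 scale in IL-33-deficient kidneys did (limma adjusted p = 4.92e-04). The urate reabsorber Slc22a12 went the same way, with a log2 difference of -0.65 ± 0.21 in WT kidneys (adjusted p = 0.0506) and -1.47 ± 0.22 in IL-33-deficient kidneys (adjusted p = 2.57e-04). Its WT difference, just outside the threshold, passed in 11 of 25 alternatives, and that of Slc22a6 in 2 of 25.

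Levels of Slc22a12 were 11.37 and 11.52 in WT controls, 10.33 to 11.18 with a median of 10.71 in WT kidneys after UUO, 11.52 and 11.72 in IL-33-deficient controls, and 9.69, 9.95, 10.17, 10.32 and 10.63 in IL-33-deficient kidneys after UUO. No UUO kidney overlapped the controls of its genotype. Slc22a13, a carrier of urate and nicotinate, fell by 0.89 ± 0.24 in WT and by 0.89 ± 0.25 in IL-33-deficient kidneys on the log2 scale (limma adjusted p = 0.0216 and 0.0178). In WT replicate 3820 it was at 9.05, inside the control range of 9.04 to 9.14, while the other WT kidneys after UUO were at 7.74 to 8.28.

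Slc22a8, the organic anion carrier next to Slc22a6, showed the widest spread among WT kidneys. It was at 7.84 and 8.05 in WT controls and at 8.47 in replicate 3820, but at 6.94 to 7.20 in the other 6 WT kidneys after UUO. In IL-33-deficient mice it went from 7.54 and 7.98 in controls to 6.79, 6.94, 6.93, 6.86 and 6.90 after UUO, below the median gene. The difference was -0.66 ± 0.28 in WT (limma adjusted p = 0.153) and -0.88 ± 0.30 in IL-33-deficient kidneys (limma adjusted p = 0.0471), and without replicate 3820 it passed in WT kidneys as well. The call in IL-33-deficient kidneys was lost in 15 of 25 alternatives, with an adjusted p of up to 0.34. Slc22a9 had values of -0.55 ± 0.24 and -0.70 ± 0.25, neither of which passed the test (limma adjusted p = 0.161 and 0.0628).

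**Figure D2:**
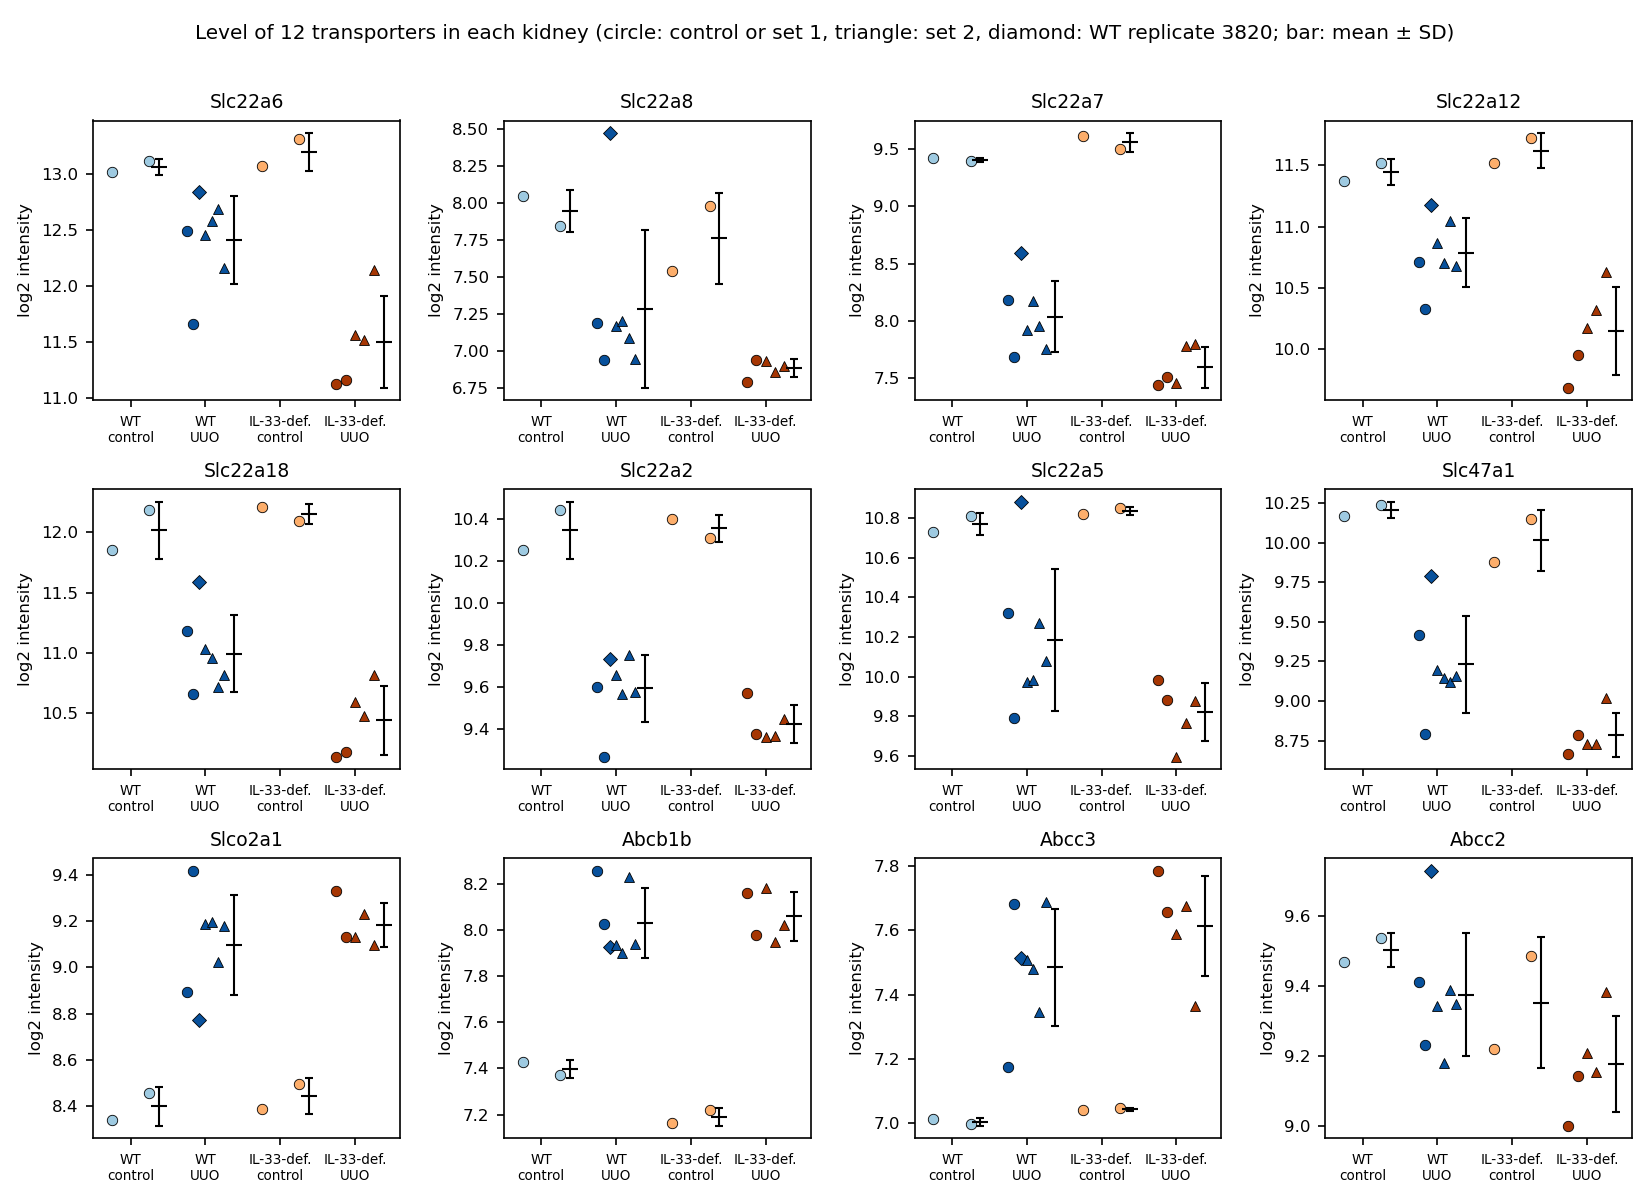
Log2 intensity (vertical axes, not starting at 0) of 12 transporters in each of the 16 kidneys by group, with the group mean ± SD beside the points; circles are controls and set 1, triangles set 2 and the diamond WT replicate 3820. Slc22a7 falls from above 9.3 in all controls to below 8.7 in all UUO kidneys, and Slc22a8 of replicate 3820 is the highest value of that panel at 8.47.

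Over the 6 organic cation and carnitine carriers, 2 of them dim, the median difference was -0.32 in WT and -0.39 in IL-33-deficient kidneys, beside -0.66 and -1.18 over the 6 anion and urate carriers, none of them dim. The 4 brighter cation carriers had medians of -0.48 and -0.76. Slc22a2, which takes cations such as metformin up from the blood, was at 10.25 and 10.44 in WT controls and at 9.27 to 9.75 with a median of 9.60 in WT kidneys after UUO. In IL-33-deficient kidneys it was at 10.31 and 10.40 in controls and at 9.57, 9.38, 9.36, 9.37 and 9.44 after UUO. The groups did not overlap, and the falls of 0.75 ± 0.10 and 0.93 ± 0.10 on the log2 scale passed the test in both genotypes (limma adjusted p = 2.74e-04 and 3.08e-05).

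The carnitine carrier Slc22a5, which returns carnitine from the filtrate, was at 10.73 and 10.81 in WT controls and at 9.79 to 10.88 after UUO, and the highest of these, replicate 3820, was above both controls. IL-33-deficient controls were at 10.82 and 10.85 and the IL-33-deficient kidneys after UUO at 9.98, 9.88, 9.60, 9.77 and 9.88, with no overlap. The WT difference was -0.59 ± 0.20 (limma adjusted p = 0.0572) and the IL-33-deficient one -1.01 ± 0.20 (limma adjusted p = 0.00204). Slc22a4, a carrier of ergothioneine, had differences of -0.27 ± 0.17 and -0.20 ± 0.17 that did not pass. Slc22a18, a family member with an unsettled substrate, fell by 1.02 ± 0.21 in WT and 1.71 ± 0.22 in IL-33-deficient kidneys on the log2 scale (limma adjusted p = 0.00467 and 8.81e-05). Slc22a17, a receptor for the injury protein lipocalin-2, passed in WT kidneys with a small difference of -0.21 ± 0.07 (limma adjusted p = 0.0497) and had -0.16 ± 0.07 in IL-33-deficient kidneys (0.134). The WT call was lost in 17 of 25 alternatives, with an adjusted p of up to 0.422.

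Slc47a1, which exchanges organic cations for protons at the apical membrane and so completes the secretion begun by Slc22a2, fell together with it. Its levels were 10.17 and 10.24 in WT controls and 8.79 to 9.79, median 9.15, in WT kidneys after UUO, and 9.88 and 10.15 in IL-33-deficient controls and 8.66, 8.79, 8.73, 8.73 and 9.02 after UUO. The groups did not overlap. The fall was 1.96-fold in WT (log2 -0.97 ± 0.17, limma adjusted p = 0.00187) and 2.34-fold in IL-33-deficient kidneys (log2 -1.23 ± 0.18, limma adjusted p = 2.24e-04).

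Of the 13 organic anion transporting polypeptides, 9 were dim, and of the 4 brighter ones Slco2a1 alone passed the test. Slco2a1, which takes prostaglandins up for breakdown, rose from 8.34 and 8.46 in WT controls to between 8.77 and 9.41 after UUO (1.62-fold, log2 0.70 ± 0.12, limma adjusted p = 0.00167). In IL-33-deficient kidneys it rose from 8.39 and 8.50 to 9.33, 9.13, 9.13, 9.23 and 9.10 (1.67-fold, log2 0.74 ± 0.13, limma adjusted p = 6.99e-04), and the groups did not overlap in either genotype. Slco2b1, a carrier of steroid sulphates, had differences of -0.37 ± 0.24 and -0.47 ± 0.25, Slco3a1 of -0.02 ± 0.09 and -0.08 ± 0.10, and Slco4a1 of 0.02 ± 0.15 and 0.05 ± 0.16 (limma adjusted p between 0.221 and 0.973). In IL-33-deficient kidneys Slco2b1 lay at 9.134 to 9.915 after UUO, below the controls at 9.985 and 10.1. With UUO kidneys of set 2 alone, Slco2b1 was called lower in both genotypes. Of all genes, 23.4% in WT and 24.6% in IL-33-deficient kidneys were then called in either direction. The dim Slco1a4 passed in IL-33-deficient kidneys with a difference of only -0.13 ± 0.04 (limma adjusted p = 0.0427), and it spanned 6.76 to 6.99 in these kidneys. This call was lost in 14 of 24 alternatives.

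The ABC transporters moved in both directions. Among the 12 drug and organic anion pumps, Abcb1b, the P-glycoprotein that expels many lipophilic drugs, was at 7.37 and 7.43 in WT controls and between 7.90 and 8.25, median 7.94, after UUO. In IL-33-deficient kidneys it went from 7.16 and 7.22 to 8.16, 7.98, 8.18, 7.95 and 8.02. No kidney overlapped, and the rise was 1.55-fold in WT (log2 0.63 ± 0.09, limma adjusted p = 6.01e-04) and 1.82-fold in IL-33-deficient kidneys (log2 0.87 ± 0.10, limma adjusted p = 3.47e-05). Abcc3, a basolateral pump for conjugated anions, rose from at most 7.01 to between 7.18 and 7.69 in WT (1.39-fold, log2 0.48 ± 0.12, limma adjusted p = 0.0117) and from 7.04 and 7.05 to between 7.36 and 7.78 in IL-33-deficient kidneys (1.48-fold, log2 0.57 ± 0.12, limma adjusted p = 0.00303).

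Abcc2, the apical pump for conjugated anions, had differences of -0.13 ± 0.12 and -0.17 ± 0.12 that did not pass, so the 95% intervals of -0.38 to 0.12 and -0.44 to 0.09 leave room for a fall of the size seen in Abcc6. Abcc6, a pump of liver and kidney, fell by 0.37 ± 0.08 and 0.26 ± 0.08 on the log2 scale (limma adjusted p = 0.00464 and 0.0275), although IL-33-deficient control 3813, at 7.15, overlapped the UUO kidneys at 6.96 to 7.15. The Abcc6 call in IL-33-deficient kidneys was lost with only the 2 groups compared and with UUO kidneys of either set alone. Over all alternatives its difference there ranged from -0.58 to -0.11. Abcc10 passed in IL-33-deficient kidneys with a difference of -0.17 ± 0.06 (limma adjusted p = 0.0497), just inside the threshold, and the call was lost in 15 of 25 alternatives. Abcc5, which exports cyclic nucleotides, had 0.18 ± 0.07 and 0.14 ± 0.07 and did not pass.

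Of the 4 mitochondrial and lysosomal transporters, Abcb8 and Abcb6 fell in both genotypes. Abcb8, of the inner mitochondrial membrane, went from 8.14 and 8.16 in WT controls to 7.61 to 7.90 after UUO (log2 -0.40 ± 0.07, limma adjusted p = 0.00194), and from 8.10 and 8.17 to 7.61 to 7.77 in IL-33-deficient kidneys (log2 -0.46 ± 0.08, limma adjusted p = 5.11e-04). Abcb6, linked to porphyrin transport, fell by 0.39 ± 0.11 and 0.42 ± 0.11 on the log2 scale (limma adjusted p = 0.0223 and 0.0129), and WT replicate 3820, at 8.77, lay just under the controls at 8.80 and 8.82. The lysosomal peptide transporter Abcb9 passed in IL-33-deficient kidneys alone (-0.22 ± 0.06, limma adjusted p = 0.0161), with -0.15 ± 0.06 in WT, and the channel subunit Abcc9 in WT kidneys alone (-0.17 ± 0.04, limma adjusted p = 0.0139), with -0.10 ± 0.04 in IL-33-deficient kidneys. The responses of neither gene were shown to differ between genotypes. None of the 5 phospholipid and sterol transporters passed, and all 5 were dim.

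Over all 28 uptake carriers the median log2 difference after UUO was -0.07 in WT and -0.11 in IL-33-deficient kidneys, and over all 23 ABC transporters it was -0.04 and 0.02, beside -0.0008 and -0.0006 for all genes. Of the 28 carriers 22 lay below 0 in WT and 21 in IL-33-deficient kidneys. The 16 brighter carriers had medians of -0.57 and -0.79 and the 9 brighter ABC transporters of -0.13 and -0.18, beside -0.003 and -0.0008 for all 9066 brighter genes. Brightness was judged over all 16 arrays, so Abcc3 counts as brighter through its level after UUO, and Abcg1 and Abcc9 count as dim although their control means lay above the median gene. Kidney by kidney, the median over the brighter uptake carriers was -0.04 in WT replicate 3820, -0.41 to -0.99 in the other 6 WT kidneys and -0.67 to -0.89 in the IL-33-deficient kidneys after UUO, each as a difference from the control mean of its genotype.

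**Figure D3:**
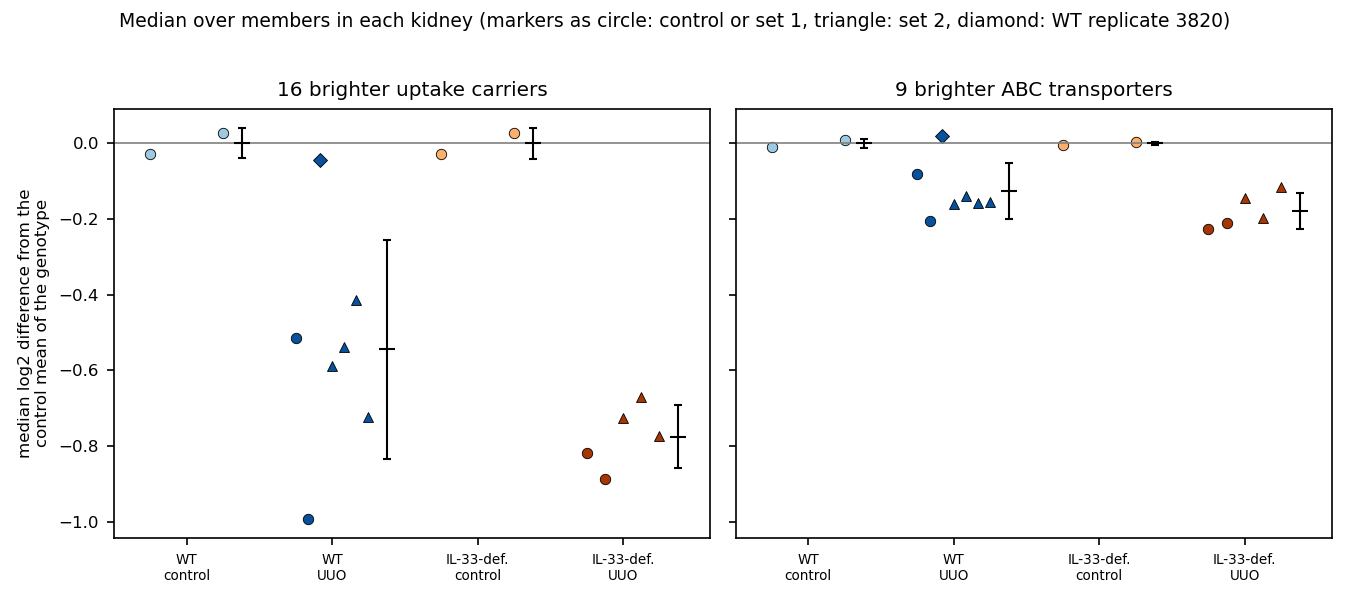
Median log2 difference from the control mean of the genotype in each kidney, over the 16 brighter uptake carriers (left) and the 9 brighter ABC transporters (right), with the group mean ± SD beside the points; circles are controls and set 1, triangles set 2 and the diamond WT replicate 3820. Uptake carriers in UUO kidneys other than replicate 3820 lie at -0.41 or lower and ABC transporters at -0.225 or higher.

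Marker genes of tubule and interstitium moved in the same kidneys. Of 13 measured proximal tubule markers, 4 fell in WT and 9 in IL-33-deficient kidneys after UUO, most of all the inositol oxygenase Miox and the phosphate carrier Slc34a3 (log2 -2.05 ± 0.38 and -1.48 ± 0.28 in WT). Their summed intensity was 62870 to 63660 in WT controls, 28960 to 57700 after UUO, 65400 to 66310 in IL-33-deficient controls and 21360 to 34610 after UUO. Injured-tubule markers rose, 7 of 9 in WT and 8 of 9 in IL-33-deficient kidneys, led by Havcr1 and Lcn2 (log2 5.78 ± 0.62 and 5.61 ± 0.36 in WT), and their sum went from 5776 to 7108 in WT controls to 21000 to 45010. In bulk kidney RNA, fewer tubule cells and less transcript per cell cannot be told apart, and the part of the tubule markers in the transporter responses was not tested.

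Leukocyte markers summed to 1734 to 1915 in WT controls and 1872 to 4028 after UUO, and to 1350 to 1612 and 2652 to 4617 in IL-33-deficient kidneys, and of 8 genes 2 were called higher and 1 lower in WT. In IL-33-deficient kidneys 4 were higher and 1 was lower. Fibroblast and pericyte markers summed to 2984 to 3408 and 3036 to 4812 in WT, and to 3030 to 3127 and 5019 to 5920 in IL-33-deficient kidneys, with 4 of 6 genes called higher in each genotype. The 6 endothelial markers summed to 3587 to 4609 and the 4 adrenal markers to 440 to 483 over all kidneys. Their part in the transporter responses was not tested.

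Partners of the transporters changed alongside. Of 18 measured other carriers of organic solutes, 5 fell in WT and 9 in IL-33-deficient kidneys and none rose, with the lactate carrier Slc5a8 (log2 -1.55 ± 0.27 in WT, -2.14 ± 0.28 in IL-33-deficient kidneys) and the peptide carrier Slc15a2 (-1.16 ± 0.18 and -1.05 ± 0.19) falling in both, and with the dicarboxylate carrier Slc13a3 (-1.89 ± 0.35) second in IL-33-deficient kidneys. Of 5 measured genes of scaffolds and ion gradients 3 fell in each genotype. The scaffold Pdzk1, which anchors apical carriers, fell by 0.90 ± 0.18 and 1.12 ± 0.19 on the log2 scale. Of 10 measured transcription factors, 2 fell and 1 rose in WT, and 4 fell and 1 rose in IL-33-deficient kidneys. Hnf4a, which drives proximal tubule genes, fell by 0.83 ± 0.23 and 1.00 ± 0.24, and Nfe2l2, the gene of NRF2, rose by 0.51 ± 0.11 and 0.54 ± 0.12 on the log2 scale. These values stand beside the promoter motifs above as measurements, and their part in the transporter changes was not tested.

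The next comparison asked whether the response to UUO itself depended on IL-33. No transporter passed an adjusted p of 0.05 for the difference between the responses, and 0.0% of all genes did. At an unadjusted p of 0.05, 4 transporters had a lower response in IL-33-deficient kidneys, beside 2.31% of all genes, and 1 a higher one, beside 2.44%. The 4 were Slc22a6 (-1.05, 95% interval -1.88 to -0.22), Slc22a12 (-0.81, -1.47 to -0.16), Slc22a18 (-0.69, -1.34 to -0.04) and Slc22a7 (-0.59, -1.14 to -0.04), each with a limma adjusted p of 0.973. The higher one was the dim channel subunit Abcc8. Abcb1b and Slco2a1, which rose in both genotypes, had differences between the responses of 0.24 (95% interval -0.05 to 0.52) and 0.04 (-0.33 to 0.42).

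After UUO alone, 5 IL-33-deficient kidneys were set against 7 WT kidneys at the study's threshold, which asks for a change of more than 1.3-fold with p below 0.05 before adjustment and below 0.25 after it. No transporter passed it, and 0.011% of all genes did. The study had applied this threshold to single probes and to fewer WT kidneys, so these counts are not those of its own contrast. In that contrast the paper reported a negative enrichment of gene ontology terms for sodium-independent anion transporters in IL-33-deficient kidneys. At an unadjusted p of 0.05, 11 transporters were lower in IL-33-deficient kidneys, 9 uptake carriers, Slc47a1 and Abcc2, beside 4.78% of all genes, and 1, the dim Slco1a5, was higher, beside 5.55%. These p-values stand on the same 12 arrays, and members that share a cell type are not independent of each other.

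The largest difference was that of Slc22a6, 1.88-fold lower (log2 -0.91, 95% interval -1.37 to -0.46, limma adjusted p = 0.311, exact two-sided permutation p = 0.00379 over 792 splits). Its 5 IL-33-deficient kidneys overlapped the WT kidneys through WT replicate 3819 alone, at 11.66, the lowest of its group. Slc22a12 was 1.56-fold lower (log2 -0.64, interval -0.996 to -0.28, exact permutation p = 0.00631) and Slc22a18 was 1.47-fold lower (log2 -0.55, interval -0.90 to -0.20, exact permutation p = 0.0114), with limma adjusted p-values of 0.311 and 0.320. Slc47a1 was 1.36-fold lower (log2 -0.44, interval -0.73 to -0.15, exact permutation p = 0.0126) and Slc22a7 was 1.36-fold lower (log2 -0.44, interval -0.74 to -0.14, exact permutation p = 0.0177). The exact p-values are unadjusted for the 52 transporters.

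Slc22a8 was the sole transporter of 52 whose 2 groups of UUO kidneys did not overlap, where 0.756% of all genes had none, with 6.94 as both the highest IL-33-deficient and the lowest WT level, so the gap was under 0.01. The ABC pumps showed smaller differences. Abcc2 was lower by 0.20 on the log2 scale (interval -0.39 to -0.01), Abcb1b differed by 0.03 (-0.13 to 0.19) and Abcc3 by 0.13 (-0.07 to 0.33). The median over all 28 uptake carriers was -0.03 and over all 23 ABC transporters 0.004, beside 0.003 over all genes. Over the 16 brighter uptake carriers it was -0.33 and over the 9 brighter ABC transporters -0.03, beside 0.01 over all brighter genes.

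Within sets, Slc22a6 was lower in IL-33-deficient kidneys by 1.19 in set 1 and by 0.74 in set 2 on the log2 scale, and Slc22a12 by 0.92 and 0.45, and in neither set did their groups overlap. Slc47a1 was lower by 0.61 and 0.33, Slc22a18 by 0.98 and 0.25, and Slc22a2 by 0.06 and 0.25. Set 1 holds 2 IL-33-deficient and 3 WT kidneys, among them replicates 3819 and 3820 at the opposite ends of the WT range. Without replicate 3819, 8 transporters passed the study's threshold, all lower, namely Slc22a5, Slc22a6, Slc22a7, Slc22a9, Slc22a12, Slc22a13, Slc22a18 and Slc47a1, beside 1.7% of all genes. Without replicate 3820 Slc22a6 alone among the transporters passed, beside 0.171% of all genes. Without IL-33-deficient replicate 3899, 3 passed, namely Slc22a6, Slc22a12 and Slc22a18, beside 0.518%. The sum of proximal tubule markers lay at 28960 to 57700 in these WT kidneys and at 21360 to 34610 in the IL-33-deficient kidneys, and its part in the differences was not tested.

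**Figure D4:**
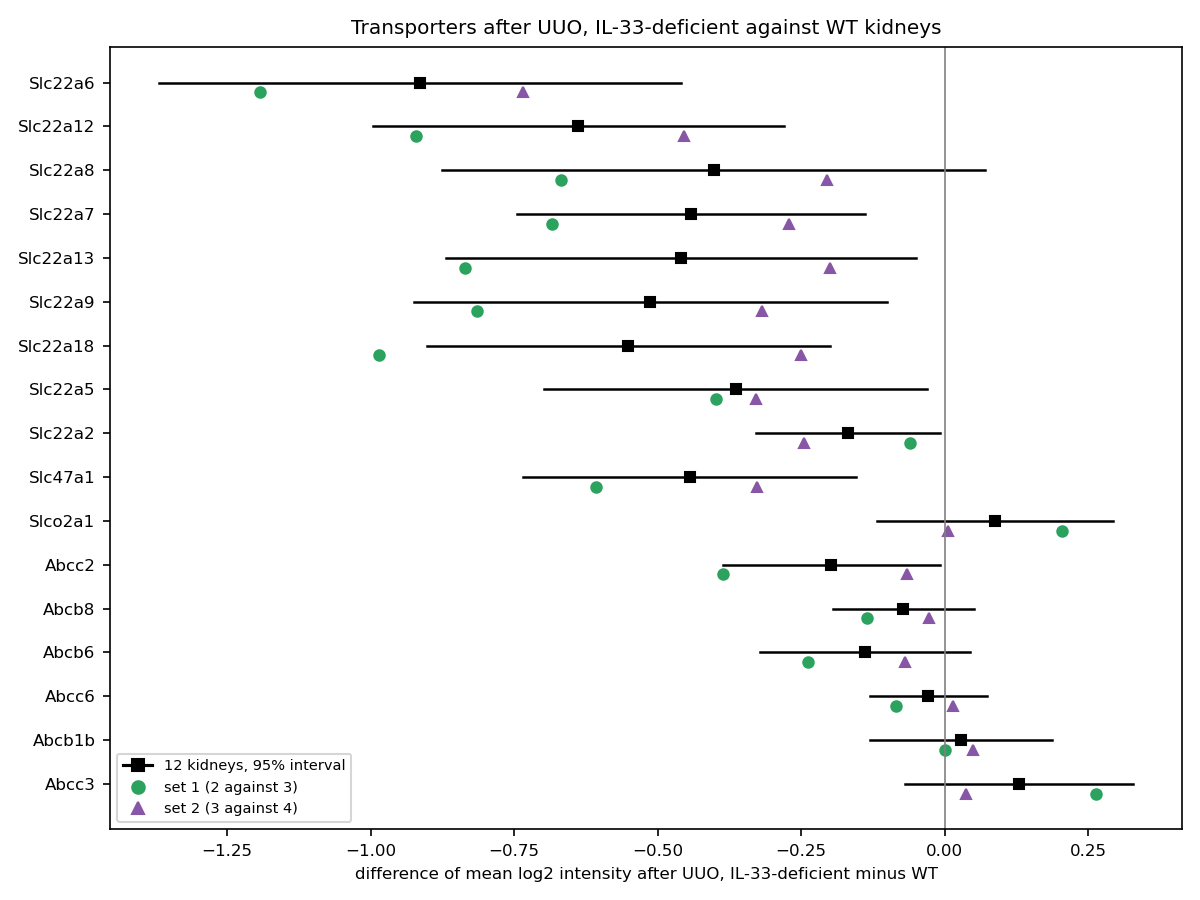
Difference of mean log2 intensity after UUO, IL-33-deficient minus WT, for 17 transporters: squares with 95% intervals over all 12 kidneys, circles for set 1 (2 against 3 kidneys) and triangles for set 2 (3 against 4). Slc22a6 lies furthest left at -0.91 and is below 0 in both sets, while Abcb1b and Abcc3 have intervals that hold 0.

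Between control kidneys, no transporter differed between genotypes at an adjusted p of 0.05, as did 0.0% of all genes, and none did at an unadjusted p of 0.05 either, beside 3.66% of all genes. Slc22a13 had the largest difference, -0.45 (95% interval -1.09 to 0.19, limma adjusted p = 1.0), from 9.04 and 9.14 in WT to 8.56 and 8.72 in IL-33-deficient kidneys. Abcb1b was lower by 0.21 (-0.46 to 0.04), with 7.37 and 7.43 against 7.16 and 7.22. With 2 kidneys per group, differences of these sizes could not be told from the spread between kidneys.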

How the data were processed

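Illumina MouseRef-8 BeadChips were imported by the authors with beadarray, and BeadStudio 2 is named in the submitters' processing notes. The table the authors deposited has 1 intensity, on a linear scale, for each of 18132 genes on each of 16 arrays. The background correction, the normalization and the joining of probes are not given in the sources used here. Array medians of 132 to 133 show values already alike between arrays, and no detection p-values were used.

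Intensities were quantile-normalized, taken to log2 and fitted in limma 3.58.1 (lmFit, eBayes; R 4.3.3), and p-values were adjusted over all genes by Benjamini-Hochberg. A model of the 4 groups gave the responses to UUO, their difference between genotypes and the comparison of controls, at an adjusted p of 0.05. The 12 UUO arrays alone gave IL-33-deficient against WT at the study's threshold. Exact two-sided permutation tests used all 792 splits. The fits were tested on simulated data with known changes. Whether kidneys came from separate litters is not stated, and precision is limited by how few arrays a group has. Symbols were matched to RefSeq for 51 of 52 members.

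Named genes were members that passed a test in any comparison, plus a fixed list of well-known carriers and pumps. Outside this rule, Slc22a4, Slc22a9, Slco2b1, Slco3a1, Slco4a1 and Abcc5 were also given with values, though they had not passed. The rest were given by counts and ranges or named without values. One member that the rule names is not reported here by name, though counts and medians include it. The members, the lists of roles, partners and markers and the rule were chosen with earlier results of these data known. Alternatives were other scalings, a filter on dim genes, a prior variance that follows intensity, array weights, other samples in the fit, each set alone or as a block, and leaving out each array. Promoters and motifs were read in Python 3.11.15 with pandas 2.3.3, and matplotlib 3.10.9 drew the plots.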

Additional observations from a re-analysis of the deposited data

Results flagged for a closer look

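Among the 21 transporters called in either genotype, the 7 WT and the 5 IL-33-deficient kidneys after UUO were searched for a highest or lowest kidney far from its group, in 42 groups in all, of which chance flags about 5 in 100. It was found in 5. WT replicate 3820 was the highest of its group for Slc22a8 at 8.47 (others 6.94 to 7.20), for Slc22a13 at 9.05 (7.74 to 8.28) and for Abcc9 at 7.04 (6.89 to 6.94). WT replicate 3819 was the lowest for Slc22a2 at 9.27 (9.56 to 9.75), and IL-33-deficient replicate 3897 was the highest for Abcb6 at 8.44 (8.21 to 8.26). No transporter had a response to UUO that differed between genotypes at an adjusted p of 0.05.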

How the results depend on the processing

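Counts of 11 lower transporters in WT and 16 in IL-33-deficient kidneys depended on the samples more than on the scaling. The share of all genes called in either direction, given in brackets, moved too. In WT, 7 were lower with only the 2 groups compared (9.81%), 1 with UUO kidneys of set 1 alone (1.04%) and 19 with set 2 alone (23.4%), beside 15.2% in the values reported, and leaving out 1 array gave 4 to 16. The 3 higher ones became 1 with set 1 alone, and 2 to 4 without 1 array. In IL-33-deficient kidneys 8 were lower with set 1 alone (12.5%, beside 21.8%) and 9 to 17 without 1 array, while the 3 higher ones stayed at 3. Against WT after UUO, the count at the study's threshold went from 0 to 5 with the brighter genes only (1.85%), 4 with array weights (0.441%), 5 with all 16 arrays in 1 model (0.7%) and 2 with set 2 alone (0.447%), beside 0.011%, and to between 0 and 8 without 1 array. All members gained there were lower in IL-33-deficient kidneys. The set of mice as a block left this count at 0. Between genotypes after UUO no transporter had passed, so there was no call that could reverse. In the responses to UUO, no named transporter changed sign in a response in which it had passed. Values near 0 that had not passed did change sign. With set 1 alone the response became -0.041 for Slco4a1 in WT and 0.035 for Slco3a1 in IL-33-deficient kidneys. With set 2 alone it became 0.017 for Slco3a1 in WT and -0.025 for Slco4a1 in IL-33-deficient kidneys. The difference between the responses of Slco2a1 became -0.038 with set 2 alone and -0.00767 with array weights. Without 1 array, the response ranged from -0.060 to 0.022 for Slco3a1 and from -0.18 to 0.21 for Slco4a1 in WT, and from -0.26 to 0.35 for Slco4a1 in IL-33-deficient kidneys, the difference between the responses of Slco2a1 from -0.014 to 0.10, and the difference of Abcb1b between genotypes after UUO from -0.0030 to 0.065. No paired analysis was possible because the labels give the groups no shared replicate numbers. The cause of these shifts was not tested, and control kidneys number 2 per genotype.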
